A study of Mus musculus with 7 samples.

Results

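Of the 54532 genes in the deposited table of mouse liver expression, the 10 described here are widely used markers of liver sinusoidal endothelial cells: Stab1, Stab2, Lyve1, Clec4g, Fcgr2b, Oit3, Kdr, Eng, Bmp2 and Pecam1. They were taken by gene name, with earlier results of these data known, and all 10 were found in the table. Livers came from old C57BL/6 mice. The 3 MDL-800 libraries were from mice fed a standard diet after they had received MDL-800, a small-molecule activator of the NAD-dependent deacetylase SIRT6, and the 4 control libraries were from mice on a standard diet alone. The labels give neither the dose nor an exact age. Nor do they say whether different libraries stand for different animals, and p-values measure only how these libraries vary. RNA was read from whole liver without sorting of cells, so for any cell type fewer cells and less RNA per cell cannot be told apart.

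Sinusoidal endothelial cells line the capillaries of the liver. They lack a continuous basement membrane, are perforated by fenestrae, and clear waste macromolecules and small immune complexes from the blood through a dense set of endocytic receptors. They also send signals to neighbouring hepatocytes, among them BMP ligands that raise the iron hormone hepcidin and Wnt ligands that maintain liver zonation. Several of these markers are shared with other cells: Stab1 and Lyve1 with some macrophages, Fcgr2b with B cells and macrophages, and Pecam1 with platelets, leukocytes and all endothelium.

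Levels are FPKM, fragments scaled to transcript length and library size, as deposited by the authors, and so can be set side by side between genes. Whole reads recovered from these values summed to 17600066 to 19920469 per library. These sums were 0.995 (control 2) to 1.28 (MDL-800 2) times the library size that the values imply. Small differences between libraries therefore depend on that scaling. Y-linked transcripts were read in control 1 and MDL-800 2 (2173 and 3514 reads) and had 0 reads in the other 5 libraries. Those 5 were not alike in the X-linked transcript Xist. It had 15495 to 21104 reads in control 2, control 4, MDL-800 1 and MDL-800 3, but 0 in control 3. Control 1 and MDL-800 2 each had 3 reads of Xist. Control 2 stood apart by its blood and macrophage transcripts and control 4 by its endothelial, stellate and B cell transcripts, as described below. The library chemistry does not mark strand. Exons of Clec4g, Eng, Fcgr2b, Stab1 and Stab2 share 5.93%, 1.51%, 2.68%, 1.09% and 1.61% of their bases with a gene on the opposite strand, and reads there cannot be told apart.

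No marker gene passed the test between MDL-800 and control livers, and the clearest pattern lay among the controls. In control 4, 8 of the 10 genes were at their lowest level of the 7 libraries, against 18.8% of all genes tested, and 6 of the 10 were under 50% of the median of the other 6 libraries, against 4.05% of all genes tested. These 6 were Bmp2, Clec4g, Lyve1, Oit3, Kdr and Eng. The summed level of the 10 genes was 42.3, 61.6, 54.7 and 21.0 FPKM in controls 1 to 4 and 60.0, 46.9 and 59.8 FPKM in MDL-800 1 to 3, so control 4 stood at 36.6% of the median of the others. This pattern was seen in the values and carries no test.

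Over all 7 libraries Eng and Clec4g had the highest mean levels, 12.5 and 11.4 FPKM, followed by Fcgr2b (6.03), Oit3 (4.08), Stab2 (3.72), Pecam1 (2.88), Bmp2 (2.70), Stab1 (2.69), Kdr (2.09) and Lyve1 (1.39 FPKM). The ranges over libraries overlapped between every pair of neighbours in that order. The range over libraries was narrowest for Fcgr2b, 1.85-fold from lowest to highest, and widest for Lyve1, 12.8-fold.

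**Figure D1:**
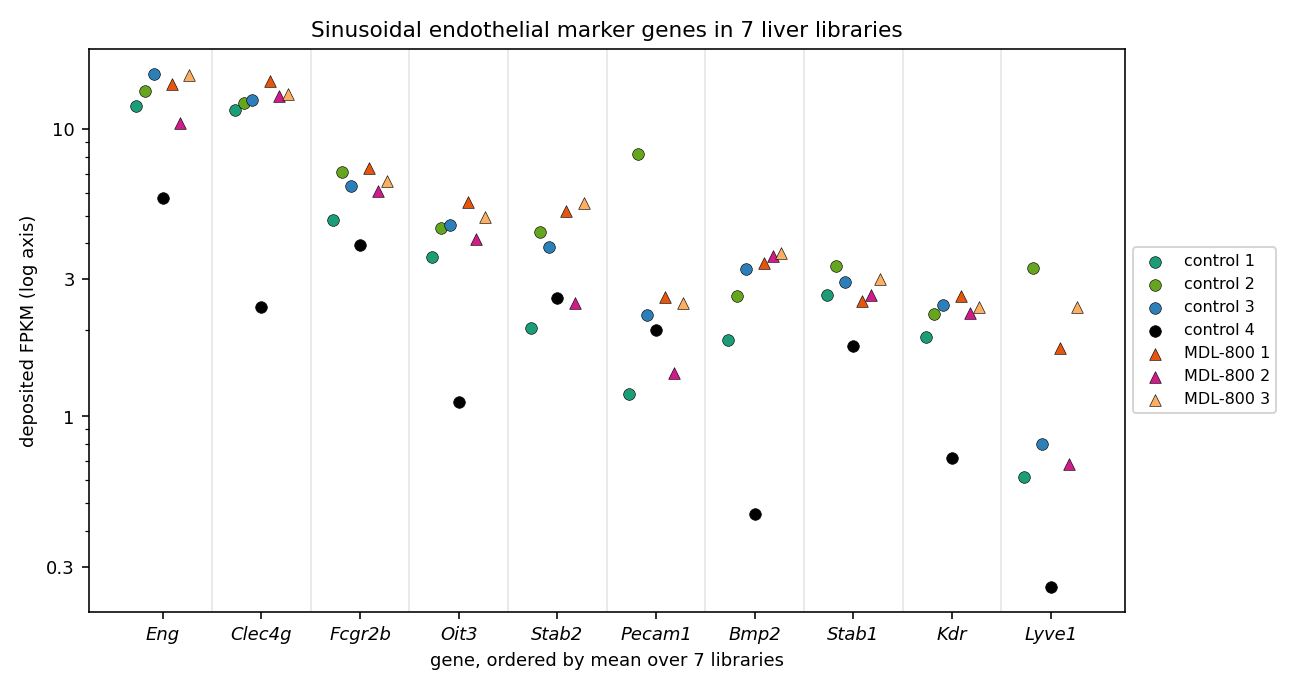
Deposited FPKM (log axis) of each of the 10 marker genes in the 7 libraries, genes ordered by their mean, circles for control and triangles for MDL-800. Control 4 (black) is the lowest point for every gene except Stab2 and Pecam1, and control 2 is the highest for Pecam1, Lyve1 and Stab1.

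Promoters of members that differed in how low they were in control 4 are shown for reference. RefSeq (GRCm38.p6) gave the 250 bases before the start for 6 of the 10 genes: Clec4g, Eng, Fcgr2b, Kdr, Stab1 and Stab2. Eng, Clec4g and Kdr are shown because they were among the genes lowest in control 4, and Stab1 because it varied little. Sequences run 5′ to 3′ on the gene's strand, and capitals mark AGGAAG or CGGAAG on either strand (CTTCCT or CTTCCG when reversed), the core bound by ETS factors, a family that includes endothelial regulators such as Erg. The windows are chr2:32646345-32646594 (plus strand) for Eng, chr8:3720652-3720901 (minus) for Clec4g, chr5:75978456-75978705 (minus) for Kdr and chr14:31168642-31168891 (minus) for Stab1.
Eng: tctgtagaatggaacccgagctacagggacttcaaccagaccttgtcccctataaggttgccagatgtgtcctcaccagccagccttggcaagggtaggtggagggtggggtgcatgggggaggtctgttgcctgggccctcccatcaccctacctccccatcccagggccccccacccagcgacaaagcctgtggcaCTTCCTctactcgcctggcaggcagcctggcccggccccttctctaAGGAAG
Clec4g: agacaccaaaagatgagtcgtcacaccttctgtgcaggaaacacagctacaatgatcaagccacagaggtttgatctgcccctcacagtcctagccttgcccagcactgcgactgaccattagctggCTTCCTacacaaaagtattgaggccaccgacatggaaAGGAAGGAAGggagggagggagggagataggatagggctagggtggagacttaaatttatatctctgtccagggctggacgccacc
Kdr: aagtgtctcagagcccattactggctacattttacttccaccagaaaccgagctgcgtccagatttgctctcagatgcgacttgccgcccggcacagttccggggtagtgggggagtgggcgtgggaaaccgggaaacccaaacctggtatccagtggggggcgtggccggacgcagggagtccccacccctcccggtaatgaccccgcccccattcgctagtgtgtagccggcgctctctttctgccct
Stab1: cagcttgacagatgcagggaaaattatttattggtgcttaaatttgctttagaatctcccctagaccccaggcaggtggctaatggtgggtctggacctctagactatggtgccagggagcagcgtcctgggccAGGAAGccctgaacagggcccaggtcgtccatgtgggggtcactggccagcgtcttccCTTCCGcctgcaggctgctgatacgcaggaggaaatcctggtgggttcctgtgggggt
AGGAAG was found in 4 of the 6 promoters (Clec4g, Eng, Stab1 and Stab2) and in 29.5% of 32851 mouse promoters of that length. CGGAAG was found in Stab1 alone of the 6, and in 13.6% of all. In Clec4g neighbouring copies overlap. The GATA core as AGATAA or TGATAA, on both strands, was in 0 of the 6 and 16.6% of all, and the AP-1 site TGAGTCA was in 0 of the 6 and 4.46% of all. These are matches of letters within a short window and are given as a description.

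The scavenger receptors differed in how they varied. Stab1 (chromosome 14, 31139013 to 31168641, GRCm38) encodes stabilin-1, an endocytic receptor for modified proteins. Stab1 was at 2.63, 3.34, 2.94 and 1.76 FPKM in controls 1 to 4 and at 2.53, 2.65 and 2.996 FPKM in MDL-800 1 to 3. The groups overlapped, and control 4 alone was below 2.53 FPKM. Means were 2.67 ± 0.670 FPKM (SD, n = 4) in control and 2.72 ± 0.243 FPKM (SD, n = 3) in MDL-800, with a log2 fold change of 0.04 (standard error 0.16, limma adjusted p = 0.975), which was -0.09 without control 4. All fold changes here are on the scale of log2(FPKM + 1), which understates changes of low genes.

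Stab2 (chromosome 10, 86841198 to 87008025) encodes stabilin-2, the main receptor by which liver clears hyaluronan. Stab2 was at 2.02, 4.38, 3.90 and 2.59 FPKM in controls 1 to 4 and at 5.17, 2.48 and 5.53 FPKM in MDL-800 1 to 3. The lowest values were in control 1 and MDL-800 2, the libraries with Y-linked reads, with control 4 just above them. The groups overlapped (3.22 ± 1.10 FPKM, SD, n = 4, against 4.39 ± 1.66 FPKM, SD, n = 3), with a log2 fold change of 0.34 (standard error 0.29, limma adjusted p = 0.95). Leaving out control 4 gave 0.27. Omitting MDL-800 3, control 1 or MDL-800 1 gave 0.17, 0.19 and 0.21, and omitting MDL-800 2 gave 0.63.

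In a limma fit with group and presence of Y-linked reads as terms, Stab2 differed by -0.72 on the log2 scale in the libraries with Y-linked reads (standard error 0.18, adjusted p = 0.0959). In that fit 0 of the 10 genes passed, against 2.42% of all genes tested. Without control 4 the difference was -0.81 (standard error 0.10) and passed (adjusted p = 0.0282), and Stab2 was the only one of the 10 to pass, against 2.19% of all genes tested (1.03% in the lower direction). The libraries with Y-linked reads numbered 2, 1 in each group, both below each of the other 5 in Stab2. Control 3, with neither Y-linked nor Xist reads, was counted among those 5. Leaving out control 4 was chosen after its values were seen. Differences between these libraries were also seen in markers of other cells. Kupffer cell markers had a median difference of -1.78 (-1.86 without control 4), with 0 of 13 passing. Of 12 stellate cell markers, 0 passed over all 7 libraries, and 2 passed as lower without control 4. Hepatocyte markers lay the other way, with a median of 0.44 over all 7 libraries and 0.58 without control 4. Of these 8 markers, 1 passed as higher over all 7 libraries and 0 passed without control 4. The ratio of Stab1 to Stab2 was 1.30 in control 1 and 1.07 in MDL-800 2 and between 0.489 and 0.761 in the other 5 libraries.

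Lyve1 (chromosome 7, 110850607 to 110863239) encodes a hyaluronan-binding receptor of sinusoidal and lymphatic endothelium. Lyve1 was at 0.614, 3.28, 0.798 and 0.256 FPKM in controls 1 to 4 and at 1.73, 0.683 and 2.40 FPKM in MDL-800 1 to 3. Control 2 was highest and control 4 lowest, so the controls spanned the MDL-800 range on both sides. Control 4 rested on 11 reads, for which the exact 95% Poisson interval was 5.49 to 19.7 reads, or 0.128 to 0.457 FPKM. The next library, control 1, was at 0.614 FPKM on 26 reads, with a counting error of its own that is not given here. Poisson intervals cover counting error only. The means were 1.24 ± 1.38 FPKM (SD, n = 4) in control and 1.60 ± 0.865 FPKM (SD, n = 3) in MDL-800, with a log2 fold change of 0.33 (standard error 0.45, limma adjusted p = 0.95). Leaving out control 4 gave 0.11, as did leaving out MDL-800 3. Leaving out control 2 gave 0.70, and leaving out MDL-800 2 gave 0.62.

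Of the other scavenger and uptake receptors, 9 of 9 were tested, 0 passed, and 3 were above and 6 below 0 in MDL-800. None of these 9 was lowest in control 4, and their median level there was 1.23 times that of the other libraries. Mrc1, named after its values were seen, and Cd36 are also counted below among further sinusoidal genes. In control 4 they were at 68.2% and 57.7% of the other libraries. Cd36, the fatty acid translocase made by hepatocytes, endothelium and macrophages, was at 10.3 to 48.1 FPKM in control and 37.9 to 94.2 FPKM in MDL-800 (log2 fold change 1.15, standard error 0.56, limma adjusted p = 0.95). Lrp1 and Scarb1, the lipoprotein receptors of hepatocytes, had log2 fold changes of -0.39 and -0.07.

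Clec4g (chromosome 8, 3707064 to 3720651) encodes the C-type lectin LSECtin, a pathogen-binding receptor of sinusoidal endothelium. Clec4g was at 11.7, 12.3, 12.6 and 2.40 FPKM in controls 1 to 4 and at 14.7, 13.1 and 13.3 FPKM in MDL-800 1 to 3. In deposited FPKM the 3 MDL-800 libraries lay above all 4 controls, by a small margin over controls 1 to 3. Control 4 lay far below, at 18.7% of the median of the other 6. The small margin depends on the scaling: control 2 gave 588 Clec4g reads of 19361269 recovered, and MDL-800 2 gave 500 of 19920469. Groups that did not overlap in deposited FPKM were seen for 2 of the 10 genes, both higher in MDL-800. Over all genes tested the share was 6.45% in either direction and 4.03% in this one. Means were 9.74 ± 4.91 FPKM (SD, n = 4) in control and 13.7 ± 0.888 FPKM (SD, n = 3) in MDL-800. The log2 fold change was 0.64 (standard error 0.49, 95% interval -0.52 to 1.81, limma adjusted p = 0.95), and without control 4 it was 0.15 (standard error 0.11, limma adjusted p = 0.999).

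Fcgr2b (chromosome 1, 170958617 to 170976547) encodes the low-affinity IgG receptor that takes up small immune complexes in these cells. Fcgr2b was at 4.81, 7.11, 6.35 and 3.95 FPKM in controls 1 to 4 and at 7.29, 6.08 and 6.59 FPKM in MDL-800 1 to 3. The groups overlapped, and controls 1 and 4 were lowest. The log2 fold change was 0.25 (standard error 0.18, limma adjusted p = 0.95), and 0.12 without control 4. The other 5 genes of the Fc receptor list did not pass. Fcer1g, the signalling chain of activating Fc receptors, was at 216.9 FPKM in control 2 and 10.3 to 48.2 FPKM elsewhere, and Fcgr4 at 139 FPKM in control 2 and 2.77 to 39.6 FPKM elsewhere. Fcgr2b held no such peak in control 2.

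Oit3 (chromosome 10, 59422958 to 59441778) encodes a secreted protein with a zona pellucida domain. Oit3 was at 3.59, 4.54, 4.64 and 1.12 FPKM in controls 1 to 4 and at 5.59, 4.13 and 4.95 FPKM in MDL-800 1 to 3. Control 4 alone lay below 3.59 FPKM, and the remaining controls overlapped MDL-800. The log2 fold change was 0.49 (standard error 0.35, limma adjusted p = 0.95), and 0.16 without control 4.

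Kdr (chromosome 5, 75932827 to 75978458) encodes VEGF receptor 2, through which VEGF-A maintains sinusoidal endothelium. Kdr was at 1.89, 2.27, 2.44 and 0.714 FPKM in controls 1 to 4 and at 2.62, 2.29 and 2.41 FPKM in MDL-800 1 to 3. Control 4 alone was low, at 30.3% of the median of the other 6, which lay close together. The log2 fold change was 0.33 (standard error 0.25, limma adjusted p = 0.95), and 0.11 without control 4.

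Among the other 12 genes of the VEGF and angiopoietin list, 8 were tested, 0 passed, 5 were above 0 and 3 below. Their median log2 fold change was 0.17, and 0.01 with control 4 left out. Of the 8, 6 were lowest in control 4, among them the receptor genes Flt4, Nrp1, Nrp2, Tek and Tie1. Flt4 is counted again below among further sinusoidal genes, and Tek and Tie1 among pan-endothelial genes. Vegfa, the ligand made mainly by hepatocytes in liver, was at 39.2 FPKM in control 4 and 29.9 to 41.3 FPKM in the other libraries. Vegfb, a ligand of VEGF receptor 1, was at 15.6, 11.5, 9.33 and 13.2 FPKM in controls 1 to 4 and at 15.7, 16.9 and 17.8 FPKM in MDL-800 1 to 3, with a log2 fold change of 0.43 (limma unadjusted p = 0.04, adjusted p = 0.95). Nrp1, a VEGF co-receptor, was at 4.62 FPKM in control 4 and 6.07 to 11.3 FPKM elsewhere. Flt4, Nrp2, Tek and Tie1 were named after their values were seen. The VEGF receptor gene Flt4 and the angiopoietin receptor gene Tek stood in control 4 at 31.0% and 37.6% of the median of the other libraries.

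Eng (chromosome 2, 32646595 to 32682669) encodes endoglin, a co-receptor for the circulating ligands BMP9 and BMP10. Eng was at 12.0, 13.6, 15.5 and 5.75 FPKM in controls 1 to 4 and at 14.4, 10.5 and 15.5 FPKM in MDL-800 1 to 3. The groups overlapped, and controls 1 to 3 spanned much the same range as MDL-800. The log2 fold change was 0.24 (standard error 0.32, limma adjusted p = 0.95), and it turned to -0.035 without control 4.

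Bmp2 (chromosome 2, 133552159 to 133562885) encodes a BMP ligand that sinusoidal endothelium sends to hepatocytes. Bmp2 was at 1.84, 2.63, 3.26 and 0.458 FPKM in controls 1 to 4 and at 3.42, 3.62 and 3.70 FPKM in MDL-800 1 to 3. All 3 MDL-800 libraries lay above all 4 controls, and they differed little among themselves. Means were 2.05 ± 1.21 FPKM (SD, n = 4) in control and 3.58 ± 0.146 FPKM (SD, n = 3) in MDL-800. Bmp2 had the largest log2 fold change of the 10 genes, 0.69 (standard error 0.35, 95% interval -0.13 to 1.52, limma unadjusted p = 0.0858, adjusted p = 0.95). Without control 4 it was 0.38 (standard error 0.16, limma unadjusted p = 0.0615, adjusted p = 0.999). Control 4 rested on 24 reads of Bmp2, with a 95% Poisson interval of 0.293 to 0.681 FPKM, below each other library.

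Of the other 22 genes of the BMP and endoglin list, 20 were tested, 0 passed, and 12 were above and 8 below 0, with a median log2 fold change of 0.11. Without control 4 the tally turned to 8 above and 12 below, and the median to -0.094. Hamp, which encodes hepcidin, was at 4002, 3226, 6728 and 1440 FPKM in controls 1 to 4 and at 3257, 4543 and 4326 FPKM in MDL-800 1 to 3. Hamp was lowest in control 4, as Bmp2 was, but highest in control 3, where Bmp2 was below each MDL-800 library. A link of Hamp to Bmp2 was not tested. The groups overlapped in Hamp (log2 fold change 0.26, standard error 0.49, limma adjusted p = 0.96, turning to -0.15 without control 4). Reads of Hamp and its close paralog Hamp2, at 3.67 to 1280 FPKM, may be split between them. Tfr2, a hepatocyte iron sensor, was highest in control 4 at 175.95 FPKM, and Bmpr1a, a type I BMP receptor gene, was at 5.50 FPKM there and 5.42 to 7.27 FPKM elsewhere.

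Further BMP genes named after their values were seen ran as follows. Bmp6, the other endothelial BMP ligand in liver, was at 0.725, 0.738, 1.21 and 0.348 FPKM in controls 1 to 4 and at 1.17, 1.04 and 1.10 FPKM in MDL-800 1 to 3, too low on average to be tested. Id1, a direct BMP target, was at 27.5, 29.3, 54.2 and 6.26 FPKM in controls 1 to 4 and at 16.5, 15.3 and 29.9 FPKM in MDL-800 1 to 3. Control 4 was the lowest library for both. Id1 had a log2 fold change of -0.23 in MDL-800 (standard error 0.65, limma adjusted p = 0.971), which was -0.81 without control 4 (standard error 0.36, limma unadjusted p = 0.065, adjusted p = 0.999). Smad6 and Smad7, feedback inhibitors of the pathway, were in control 4 at 47.1% and 45.7% of the median of the other libraries. Not all of the list was this low. Of its 20 tested genes beside Bmp2 and Eng, 8 were lowest in control 4. The median of the 20 there was 73.0% of the other libraries. Id3 was lowest in MDL-800 2 and Atoh8 in control 2.

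Pecam1 (chromosome 11, 106654217 to 106750628) encodes the junctional adhesion molecule CD31 and was the member least like the others. Pecam1 was at 1.20, 8.20, 2.26 and 1.99 FPKM in controls 1 to 4 and at 2.61, 1.42 and 2.47 FPKM in MDL-800 1 to 3. Control 2 was far above every other library, and control 4 lay among them. The lowest values were in control 1 and MDL-800 2, the libraries with Y-linked reads (log2 difference -0.80, limma adjusted p = 0.327). Means were 3.41 ± 3.22 FPKM (SD, n = 4) and 2.17 ± 0.654 FPKM (SD, n = 3), with a log2 fold change of -0.27 (standard error 0.47, limma adjusted p = 0.955), the only one below 0 of the 10. It was -0.37 without control 4 and turned to 0.17 without control 2.

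Other blood and macrophage genes were high in control 2 as well. The 5 platelet markers summed to 66.6 FPKM in control 2 and 2.87 to 13.0 FPKM elsewhere (Gp1bb was listed at 0 in every library), the 5 red blood cell transcripts to 807.4 against 126.1 to 198.4 FPKM, and the 13 Kupffer cell markers to 2317 against 238.4 to 867.5 FPKM. Cdh5, a junction gene of endothelium, was also highest in control 2, at 9.66 FPKM against 2.51 to 6.89 FPKM elsewhere, and its lowest values, 2.51 and 2.54 FPKM, were in control 1 and MDL-800 2. Of the 10 genes, 3 (Pecam1, Lyve1 and Stab1) were highest in control 2, against 15.0% of all genes tested. The part of these other cells in the Pecam1 and Lyve1 values was not tested.

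Between the groups, 0 of the 10 genes passed limma at an adjusted p under 0.05, as did 0 of the 11394 genes tested (0.0%), those with a mean of at least 1 FPKM. At an unadjusted p under 0.05 there were 0 of the 10, against 4.85% of all genes tested. On recovered reads limma voom also called 0 genes. Of the 10 log2 fold changes 9 were above 0, with a median of 0.33, while 54.2% of all genes tested were above 0, with a median of 0.02. Without control 4, 7 of 10 were above 0 and the median was 0.12, against 52.9% and a median of 0.01 over all genes, with 0 of the 10 and 0 genes in all (0.0%) passing, and 0 of the 10 against 3.26% at an unadjusted p under 0.05.

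**Figure D2:**
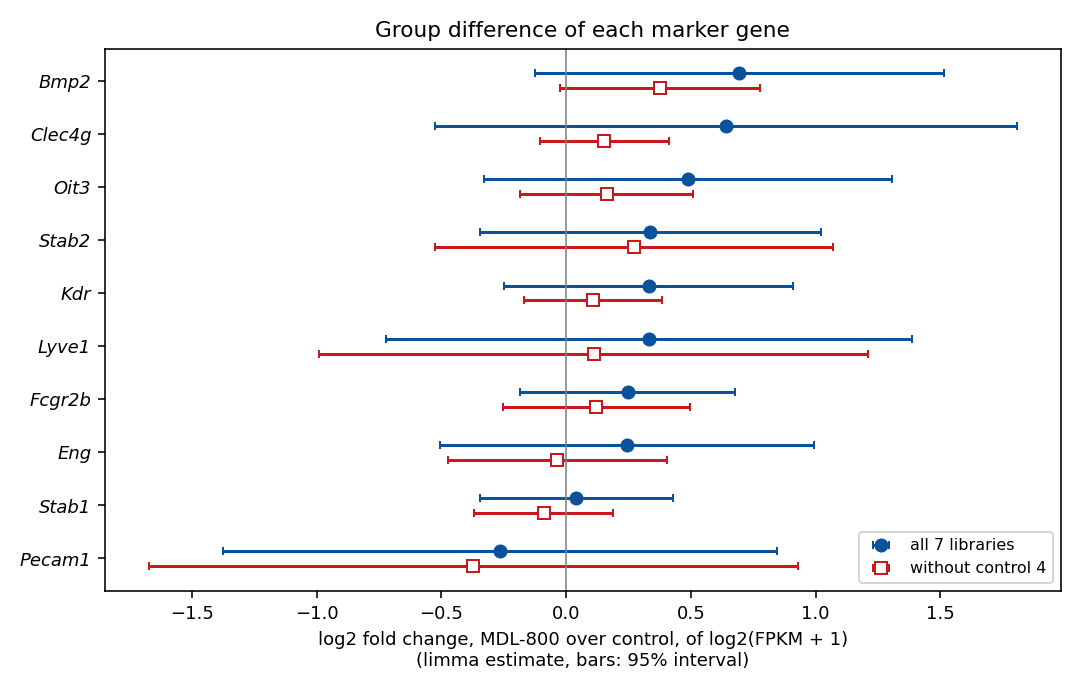
Log2 fold change of each marker gene, MDL-800 over control, on log2(FPKM + 1), with 95% intervals from limma, for all 7 libraries (filled circles) and without control 4 (open squares). Every interval spans 0, and without control 4 the estimates of Clec4g and Bmp2 move from 0.64 and 0.69 to 0.15 and 0.38.

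The low level in control 4 was also seen in other endothelial genes. Of 20 further genes of sinusoidal endothelium, 14 were tested and 10 were lowest in control 4, with a median there of 48.8% of the other libraries. Of 19 pan-endothelial genes, 16 were tested and 14 were lowest in control 4, with a median of 41.2%. Over all genes tested that median was 96.4%. Aqp1, a water channel, was at 4.44 FPKM in control 4 and 12.9 to 21.8 FPKM elsewhere, and Egfl7, a secreted endothelial protein, at 2.41 against 4.03 to 5.64 FPKM. Chosen after their values were seen, the orphan receptor gene Gpr182, the tight junction gene Cldn5 and the ETS factor gene Erg were in control 4 at 19.6%, 23.6% and 19.1% of the other libraries. The 6 tested genes of these lists that were not lowest there included Cdh5, at 104.0%, and Thbd, which encodes thrombomodulin, at 130.0%. Fcgrt, the neonatal Fc receptor gene, which hepatocytes also express, was lowest in control 4 but at 75.5%. S1pr1, a sphingosine-1-phosphate receptor gene, was also lowest there, at 73.2%.

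No gene of either endothelial list passed between the groups. Of the 14 further sinusoidal genes, 12 were above 0. Their median log2 fold change was 0.23, and 0.04 without control 4 (9 above 0). Of the 16 pan-endothelial genes, 14 were above 0 with a median of 0.22, which was 0.01 without control 4 (9 above 0). Adgrf5, an adhesion receptor gene of endothelium, was higher in all 3 MDL-800 libraries (1.89 to 2.18 FPKM) than in the 4 controls (0.783 to 1.68 FPKM), with a log2 fold change of 0.44 (limma unadjusted p = 0.0268, adjusted p = 0.95). Adgrl4, a related receptor gene, had 0.43 with overlapping groups, and 0.22 without control 4, in which its level was 18.3% of the other libraries.

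Markers of other liver cells did not all move with them. Of 12 stellate cell markers, 10 were lowest in control 4, at a median of 35.7% of the other libraries. Lrat, which encodes the enzyme that esterifies vitamin A for storage in these cells, was at 0.824 FPKM in control 4 and 3.59 to 6.44 FPKM elsewhere. Of 13 Kupffer cell markers, 0 were lowest there, and their median was 125.3%. Of 8 hepatocyte markers, 0 were lowest there, with a median of 137.6%. B cell markers were highest there in 4 of 4 tested: Cd79a, part of the B cell receptor, was at 24.3 FPKM in control 4 and 0.635 to 9.45 FPKM elsewhere, while Fcer2a and Cr2 were too low to be tested. Few genes of the remaining lists were expressed highly enough to test: 2 of 5 lymphatic endothelial genes, 2 of 9 genes of large vessels and other capillaries, 1 of them lowest in control 4, and 3 of 5 cholangiocyte markers, none lowest there. The tested lymphatic genes were Prox1, which hepatocytes also express, and Reln, which is also counted among the stellate markers, and both were lowest in control 4, at 80.8% and 25.6% of the other libraries. The more specific Pdpn and Mmrn1, too low to be tested, were there at 201.5% and 190.9%, on 12 and 17 reads, and these 4 genes were named after their values were seen.

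In MDL-800 against control, 0 stellate, Kupffer, B cell or hepatocyte markers passed. Stellate markers had a median log2 fold change of 0.23, which was 0.03 without control 4, and B cell markers one of -0.85, which was -0.30 without control 4. Kupffer cell markers had a median of -0.39, and -0.28 without control 4. Hepatocyte markers had a median of 0.09 (4 above and 4 below 0), and 0.20 without control 4 (6 above and 2 below). The part of these shifts in the level of the 10 genes was not tested.

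**Figure D3:**
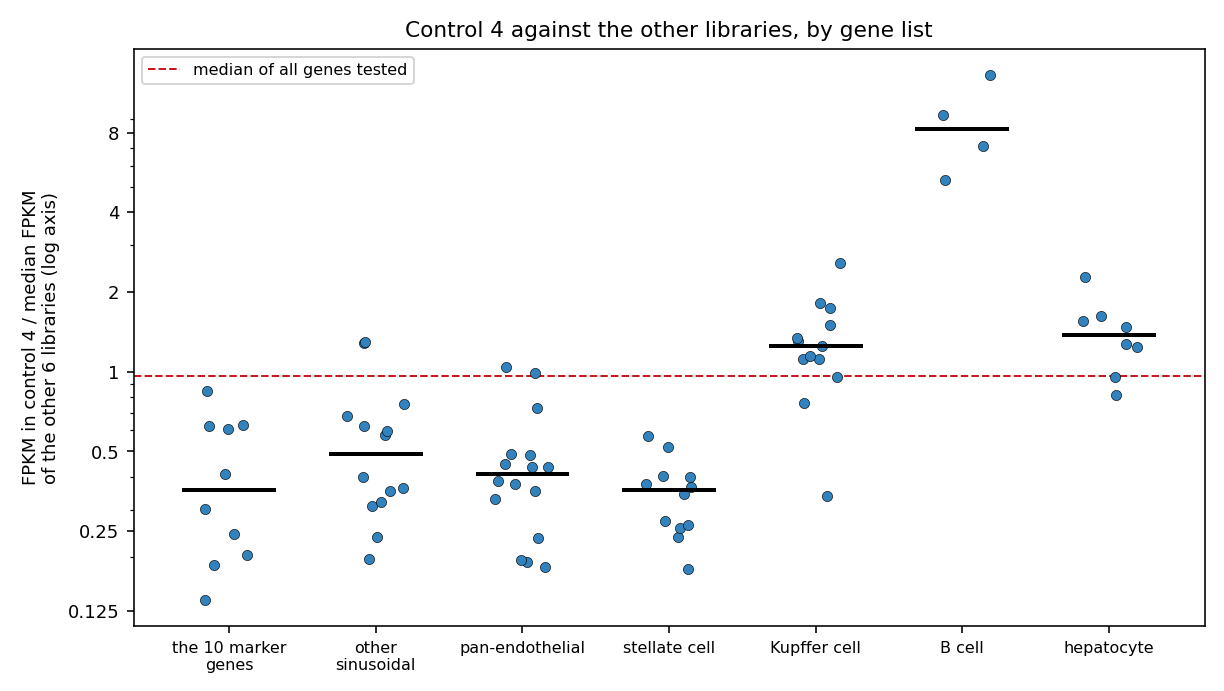
Level in control 4 divided by the median of the other 6 libraries (log axis) for each tested gene of 7 lists; bars are list medians and the dashed line is the median of all genes tested. The 10 marker genes, the other endothelial genes and the stellate cell markers lie mostly below the line, and the B cell markers lie above it.

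**Figure D4:**
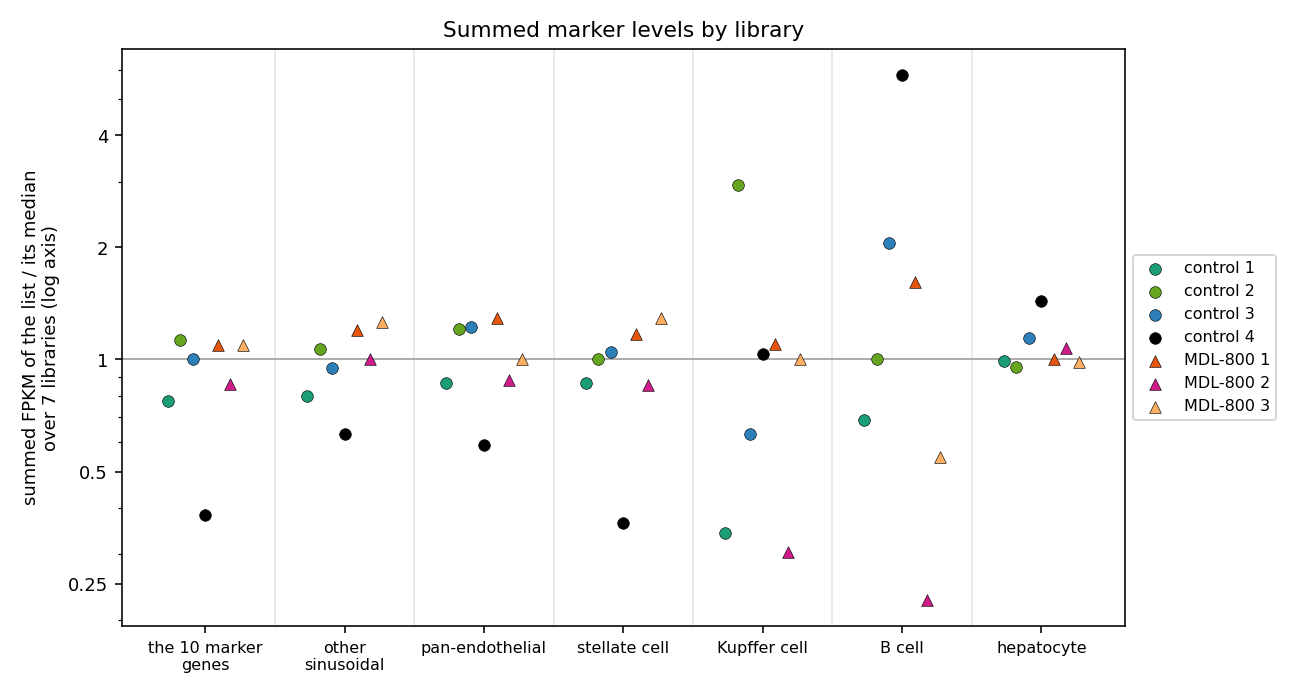
Summed FPKM of each list in each library, divided by the median of that list over the 7 libraries (log axis). Control 4 (black) is lowest for the endothelial and stellate lists and highest for B cell and hepatocyte markers, and control 2 is highest for Kupffer cell markers.

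The 10 genes can also be described by their mean profile. After centring each gene on the log2(FPKM + 1) scale, the mean of the 10 was -0.22, 0.39, 0.12 and -0.82 in controls 1 to 4 and 0.28, -0.05 and 0.30 in MDL-800 1 to 3. Kdr lay nearest to that profile, with a root mean square difference of 0.146 over the 7 libraries, and Pecam1 farthest, at 0.536. Outside the lists the 5 nearest genes were Lrrc32 (0.086), the predicted gene Gm10226 (0.086), Clec14a (0.096), Tinagl1 (0.116) and Pth1r (0.121). Each was lowest in control 4, where that profile was lowest, which follows from how they were picked. Lrrc32, for one, was at 1.94, 4.01, 2.74 and 1.07 FPKM in controls 1 to 4 and 2.98, 2.09 and 3.45 FPKM in MDL-800 1 to 3.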

How the data were processed

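RNA of 7 whole-liver libraries was made into cDNA with a SMARTer low-input kit, sheared and built into libraries that do not mark strand, per the labels' protocols. The authors deposited FPKM values per gene in 1 table. TopHat2 2.0.14, Bowtie2 2.1.0, Cufflinks 2.2.1 and build mm9 are named in the submitters' processing notes. For the counting tool, none is given in the sources used here. Table coordinates are those of GRCm38: chromosome and start were identical for 53756 of 54409 genes listed in both the table and GENCODE M21, all 10 described included.

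FPKM times gene length came in whole multiples of 1 step per library (100% of values within 0.01), which gave reads. The 11394 genes averaging 1 FPKM or more were tested as log2(FPKM + 1) with limma (version 3.58.1, R 4.3.3), a two-sided moderated test with an intensity trend, and Benjamini-Hochberg adjustment over all genes tested. The procedure was tested on simulated data. Intervals of read numbers are exact 95% Poisson intervals. Figures were drawn with matplotlib 3.10.9.

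The 10 genes and the 16 lists beside them were chosen with earlier results of these data known. All 10 are described, with the 3 genes of highest mean FPKM and the 2 of smallest p in the lists discussed, and the 5 nearest genes. Genes named outside that rule are marked as chosen after their values were seen. The samples were grouped by the diet in the labels. Alternatives were a pseudocount of 0.1, no filter or a mean of at least 5 FPKM, other scalings, array weights, a robust prior, voom on recovered reads, a replicate block and leaving out each library. Leaving out control 4 in the fit with Y-linked reads or in the libraries without them, and control 2 together with control 4, was chosen after seeing the data.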

Additional observations from a re-analysis of the deposited data

Results flagged for a closer look

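In groups of 4 libraries, a lowest or highest value was set against the spread of the rest with Dixon's test at its 95% critical value, for each of the 10 genes and for list sums in the controls. Chance gives such a value in about 1 in 20 groups. Here 2 of the 10 genes and 3 of 16 list sums were marked. Genes and lists share the same 4 libraries, so these are not separate events. Clec4g stood apart in control 4, at 2.40 FPKM below 11.7 to 12.6 FPKM in the other controls, and Pecam1 in control 2, at 8.20 FPKM. The summed Fc receptor genes (489.5 FPKM), platelet markers (66.6 FPKM) and red blood cell transcripts (807.4 FPKM) also stood apart in control 2.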

How the results depend on the processing

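The median log2 fold change of the 10 genes, 0.33, stayed above 0 under every alternative run. It ran from 0.12 (without control 4) to 0.49 (without MDL-800 2) when 1 library was left out, and from 0.10 to 0.52 under the other settings. No gene of the 10 passed in any of 203 combinations of gene and setting, with a lowest limma adjusted p of 0.581, and the sign was kept in 193. Some of these could not change the sign: no filter, the 5 FPKM filter and the robust prior leave each fold change as it was. The replicate block gives the same fold changes as leaving out control 4. A mean of at least 5 FPKM leaves Clec4g, Fcgr2b and Eng alone, so no median was taken there. The count of all genes passing was 0, and ran from 0 to 1 when 1 library was left out (1 without control 1 and 1 without MDL-800 1). Stab1 changed sign without control 4 (-0.090) and without MDL-800 3 (-0.012). It was at -0.14 among libraries without Y-linked reads less control 4 and -0.024 without controls 2 and 4. With 1 library left out Stab1 ran from -0.090 to 0.13, Eng from -0.035 to 0.40, Pecam1 from -0.52 to 0.17, Stab2 from 0.17 to 0.63, Lyve1 from 0.11 to 0.70, Clec4g from 0.15 to 0.82, Oit3 from 0.16 to 0.63, Fcgr2b from 0.12 to 0.36, Kdr from 0.11 to 0.44 and Bmp2 from 0.38 to 0.89. Eng turned to -0.035 without control 4 and -0.038 without controls 2 and 4. Pecam1 turned to 0.17 without control 2 and 0.22 without controls 2 and 4. In the fit with Y-linked reads, leaving out control 4 turned the differences of Clec4g, Kdr and Bmp2 to -0.087, -0.15 and -0.22, and moved Stab2 from -0.72 to -0.81, past the threshold.

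The groups share replicate numbers 1 to 3, which did not pair the libraries (correlations of deviations -0.587, -0.553 and 0.057). With the numbers as a replicate block the median was 0.12, Stab1 was at -0.090 and Eng at -0.035, and 0 genes passed. That fit takes its estimate from the 3 pairs, so control 4 drops out of it. Depth limits Lyve1 and Bmp2 most, at 11 and 24 reads in control 4.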
